A study of Homo sapiens with 20 samples.

Results

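The AP-1 and immediate early genes FOS, FOSB, FOSL1, FOSL2, JUN, JUNB, JUND, ATF3, EGR1 and IER2, were described by name, which makes 10 of the 20033 protein-coding genes of the annotation. For each gene, every RNA polymerase II (POL2) and MYC summit was collected within 1 kb of an annotated transcription start site (TSS), in the rest of the gene, and within 2 kb of its 3′ end. These zones are called promoter, body and 3′ end, and together they make the locus.

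The data are chromatin immunoprecipitation followed by sequencing (ChIP-seq) from PC-3, an established human prostate cancer cell line, with 3 MYC and 3 POL2 libraries per genotype. The groups are wild-type (WT) PC-3 cells and PC-3 cells with a knockout of the kinase gene SLK (SLK-KO), all labelled PSD10. Whether PSD10 is 1 clone is not stated, so SLK loss and other differences of that line cannot be told apart. Cells of both genotypes were grown to 80% confluence in standard conditions with no stimulus named, and fixed with 1% formaldehyde for 8 min. The labels name separate biological replicates without saying how they were separated. The 6 IgG and 2 Input samples were not used here.

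Each library has 1 list of peak summits, single positions with a score, and rank 1 is the highest score. The POL2 lists held 17126, 5047 and 9925 summits in WT replicates 1, 2 and 3, and 19017, 15436 and 16298 in SLK-KO. The MYC lists held 201 to 365 summits in WT and 988 to 1420 in SLK-KO. Read depth is unknown, so presence was also counted in lists cut to the length of the shortest, 5047 for POL2 and 201 for MYC, called equal-length lists. WT replicate 2 is the shortest list of both antibodies and stands apart in several results below.

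The FOS proteins (FOS, FOSB, FOSL1, FOSL2) and JUN proteins (JUN, JUNB, JUND) are basic leucine zipper factors that pair to form AP-1. AP-1 binds a short palindrome known as the TPA-responsive element, and dimers with ATF/CREB partners such as ATF3 favour the longer cAMP-responsive element (CRE). FOS, FOSB, JUN, JUNB, ATF3, EGR1 and IER2 are immediate early genes, whose transcription starts within minutes of a growth or stress signal without new protein synthesis. At many of them POL2 waits just past the start site, and FOS and EGR1 are driven through serum response factor (SRF) bound at CArG boxes.

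The promoter sequences of FOS, FOSB, JUNB and JUN are shown because their best POL2 summits, described next, lie just past the right-hand ends, and that of EGR1 because it holds CArG boxes and, in most libraries, no summit at its end. They are RefSeq sequences of GRCh38.p14, on the gene's own strand, 5′ to 3′, and capitals mark TATAAA, the CRE half-site TGACGT (or its complement ACGTCA) and CArG boxes. FOS ends 3 bases before its canonical TSS, FOSB and JUN 2 bases before, JUNB and EGR1 1 base before. JUN has none of these motifs here.
FOS, chr14:75278698-75278825, plus strand: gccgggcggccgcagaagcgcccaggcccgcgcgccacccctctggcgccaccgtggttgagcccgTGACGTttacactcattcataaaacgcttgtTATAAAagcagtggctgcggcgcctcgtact
FOSB, chr19:45467866-45467994, plus strand: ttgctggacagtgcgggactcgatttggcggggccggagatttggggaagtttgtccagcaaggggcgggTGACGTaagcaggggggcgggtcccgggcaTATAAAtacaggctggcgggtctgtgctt
JUNB, chr19:12791356-12791485, plus strand: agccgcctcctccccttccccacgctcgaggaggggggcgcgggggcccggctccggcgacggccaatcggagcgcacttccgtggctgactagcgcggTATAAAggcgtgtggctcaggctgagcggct
JUN, chr1:58784049-58784177, minus strand: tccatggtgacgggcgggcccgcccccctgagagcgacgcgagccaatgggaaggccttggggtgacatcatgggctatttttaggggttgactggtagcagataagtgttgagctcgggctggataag
EGR1, chr5:138465349-138465478, plus strand: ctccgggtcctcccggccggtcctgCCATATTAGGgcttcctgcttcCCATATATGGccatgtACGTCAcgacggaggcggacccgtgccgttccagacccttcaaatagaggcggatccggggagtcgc
For IER2 the stretch shown lies inside the gene, just upstream of its POL2 summit in exon 2. Capitals mark a full CRE, TGACGTCA, and TATAAA.
IER2, chr19:13153005-13153034, plus strand: cagTGACGTCActgggggTATAAAagggcc

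The motifs were searched on both strands in the 250 bases before each RefSeq TSS of coding genes. A RefSeq promoter at the GENCODE canonical TSS was found for 8 of the 10 genes, all but FOSL1 and ATF3. TATAAA was present in 3 of the 8 (FOS at -33, FOSB at -30 and JUNB at -31) and in 9% of 22199 coding promoters. TGACGT was present in 5 of the 8 (FOS, FOSB, FOSL2, JUND, EGR1) and in 8% of all, and the full TGACGTCA, which contains it, in JUND alone (2.01% of all). CCAAT was present in JUN, JUNB and JUND, against 32.7% of all. A CArG box was present in these 250 bases only in EGR1, which held a pair of them, against 1.18% of all. Boxes farther upstream, at FOS or any other gene, were outside this search. The AP-1 element itself (TGACTCA or its complement TGAGTCA, 3.45% of all) and CACGTG (7.37% of all) matched none of the 8. A match is a match of letters and not a measured binding site.

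POL2 was found at most of these genes in cells of both genotypes, grown with no stimulus named. A promoter summit was present in all 6 libraries at 7 of the 10 genes (FOS, FOSB, FOSL2, JUN, JUNB, JUND and ATF3), while 33.6% of the 10765 coding genes with a POL2 promoter summit in any library had one in all 6. The best-ranked locus summit was among the first 500 of every list at 7 genes (FOS, FOSB, FOSL1, JUN, JUNB, ATF3 and IER2), against 3.12% of the 11687 coding genes with a locus summit. It was among the first 100 at 2 genes, JUNB and IER2, against 0.419%. Both limits on rank were chosen after the values were seen. JUND was outside the first 500 in the 3 WT libraries, FOSL2 in every library, and EGR1 stood far below the rest.

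**Figure D1:**
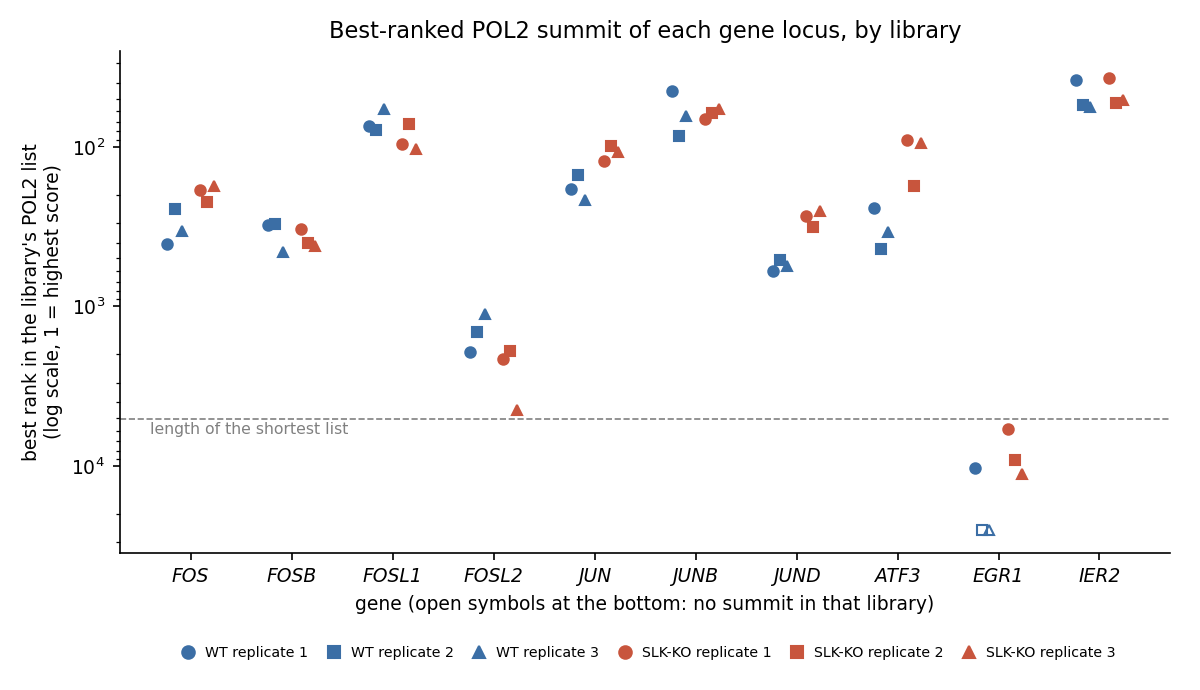
Rank of the best-scored POL2 summit of each gene locus (vertical log axis, 1 at the top) in the 3 WT (blue) and 3 SLK-KO (red) libraries, with a symbol per replicate and open symbols where a library had none. FOS, JUN, JUND and ATF3 ranked better in all 3 SLK-KO libraries than in all 3 WT libraries, the other genes with a summit in every library overlapped, and EGR1 lay past the dashed line at 5047, the length of the shortest list.

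Among the FOS family, FOS, the classical partner of JUN, ranked 408, 244 and 339 in WT replicates 1 to 3 and 186, 222 and 177 in SLK-KO. All 3 SLK-KO ranks were better than the best WT rank. FOSB, a close paralogue of FOS, ranked 311, 305 and 455 in WT and 326, 403 and 418 in SLK-KO, with overlapping ranges. FOSL1, which encodes FRA-1 and is often high in invasive carcinoma lines, ranked 74, 79 and 58 in WT and 96, 72 and 103 in SLK-KO, again overlapping. FOSL2, which encodes FRA-2, stood lower in the lists, at 1925, 1451 and 1122 in WT and 2134, 1892 and 4444 in SLK-KO. Its ranges overlapped at 1 pair, WT replicate 1 and SLK-KO replicate 2.

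In the JUN family, JUN, the main partner of FOS, ranked 183, 151 and 216 in WT and 123, 99 and 108 in SLK-KO, so that the genotypes did not overlap. JUNB, which can limit the activity of JUN, ranked 45, 85 and 64 in WT and 67, 61 and 58 in SLK-KO, all within the WT range. JUND, the most steadily expressed of the family in many cells, ranked 598, 515 and 560 in WT and 272, 319 and 253 in SLK-KO. The groups did not overlap at JUND either.

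ATF3, a stress-induced partner of JUN proteins that often represses, ranked 242, 437 and 343 in WT and 90, 176 and 94 in SLK-KO. Every SLK-KO library was better than every WT library. IER2, a small nuclear protein of the immediate early response, ranked 38, 55 and 56 in WT and 37, 53 and 51 in SLK-KO, without a difference beyond the spread. EGR1, a zinc finger factor of the serum response, ranked 10353 in WT replicate 1, had no summit in WT replicates 2 and 3, and ranked 5837, 9130 and 11186 in SLK-KO. By median rank the order in WT was IER2 (55), JUNB (64), FOSL1 (74), JUN (183), FOSB (311), FOS (339), ATF3 (343), JUND (560) and FOSL2 (1451). JUNB overlapped both IER2 and FOSL1, which did not overlap each other. FOSB, FOS and ATF3 overlapped, while JUN, JUND and FOSL2 were each clear of their neighbours. In SLK-KO the order was IER2 (51), JUNB (61), ATF3 (94), FOSL1 (96), JUN (108), FOS (186), JUND (272), FOSB (403) and FOSL2 (2134), so that ATF3 stood level with FOSL1 and JUN. EGR1 came last in both. JUNB led the group when only promoter summits were ranked, since the main IER2 summit is not in the promoter zone. The genes whose promoter ranks were most like those of JUNB over the 6 libraries, by distance in log10 rank among 3608 coding genes, were RPLP0 (0.22), ACTB (0.22) and H4C5 (0.23).

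On log2 rank in equal-length lists, the SLK-KO minus WT difference was -0.74 at FOS, -0.73 at JUN, -0.99 at JUND and -1.54 at ATF3, where a negative value is a better rank in SLK-KO. The mean log2 rank of ATF3 was 8.37 ± 0.43 in WT against 6.84 ± 0.54 (SD, n = 3 each) in SLK-KO, a geometric mean rank 2.9 times smaller. For JUND it was 9.12 ± 0.11 against 8.13 ± 0.17, and 1.99 times smaller. The exact two-sided permutation p was 0.1 at each of the 4 genes, the smallest that 3 against 3 libraries allow, and 0.323 after Benjamini-Hochberg adjustment over the 2966 coding genes with a locus summit in all 6 equal-length lists. None of the 4 passed a threshold of 0.05, which no gene could in this design. Of the 9 genes testable, 4 ranked better in every SLK-KO library and 0 ranked worse, while 15.4% of the 2966 genes ranked better and 15.5% worse. Among the 809 of them with a rank of 500 or better in at least 1 library, 20.3% ranked better and 21.3% worse. The difference was 0.12 at FOSB, 0.36 at FOSL1, 0.84 at FOSL2, -0.02 at JUNB and -0.08 at IER2, with exact permutation p from 0.2 to 1. The median over the 9 genes was -0.08 and over all 2966 genes 0.02. This rank test was added after the ranks had been seen, and it reads order within a list, not the amount of POL2.

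The summits sat at nearly the same bases in every library. The best-ranked promoter summit lay 20 to 51 bp past the canonical TSS at FOS, 31 to 52 bp at FOSB, 27 to 45 bp at JUN, 27 to 40 bp at JUNB and 29 to 54 bp at ATF3. These 5 genes had it between 0 and 100 bp past the TSS in all 6 libraries, which was so for 24.3% of the 3270 coding genes with a promoter summit in all 6 libraries measured to the canonical TSS. Counted from the first base of the TATAAA printed above, the summit lay 53 to 84 bp further on at FOS, 61 to 82 bp at FOSB and 58 to 71 bp at JUNB. At FOSL1 it lay at 45 to 67 bp in the 5 libraries that had one. Positions were looser at JUND, from 25 bp before to 199 bp past the TSS, and at FOSL2, from 14 bp before to 156 bp past it in 5 libraries. In SLK-KO replicate 2 the FOSL2 summit lay 1777 bp past the canonical TSS, 876 bp before another annotated FOSL2 TSS and within 1 kb of the TSS of FOSL2-AS1. At the 5 narrow genes the positions of the genotypes overlapped.

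**Figure D2:**
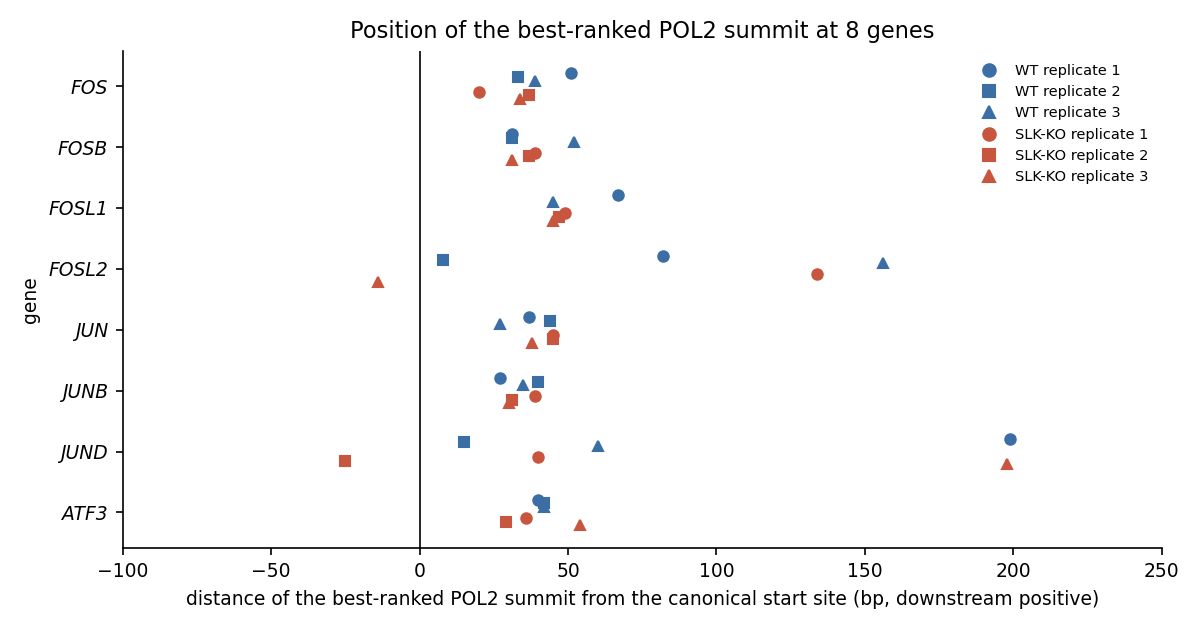
Distance in bp of the best-ranked POL2 summit from the canonical start site (horizontal axis) at 8 genes, by library and genotype. At FOS, FOSB, JUN, JUNB and ATF3 all 6 libraries lie between 20 and 54 bp, FOSL2 and JUND spread further, and 2 summits far downstream (FOSL1 in WT replicate 2, FOSL2 in SLK-KO replicate 2) lie outside the axis.

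IER2 departed from the annotation. Its best summit in all 6 libraries lay at chr19:13153080-13153093, 2669 to 2682 bp past the canonical TSS, in exon 2 and the annotated 5′ untranslated region. The nearest annotated IER2 TSS was 1105 to 1118 bp away, so by the zone rule the summit counted as 3′ end and not as promoter, although its ranks were 37 to 56. The TATAAA in the IER2 stretch printed above begins 60 bp before the median summit (57 to 70 bp over the 6 libraries) and the CRE 75 bp before it. These distances from TATAAA fall among those at FOS, FOSB and JUNB. A lesser summit 1203 to 1257 bp past the canonical TSS was present in WT replicates 2 and 3 and SLK-KO replicates 2 and 3, at ranks 2692, 1504, 1161 and 709. No library had a summit within 500 bp of the canonical IER2 TSS. Start sites of the noncoding genes ENSG00000267598 and ENSG00000287296 lie within 1 kb of the main summit, and summits carry no strand, so their polymerase and that of IER2 cannot be told apart.

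EGR1, whose promoter holds the CArG boxes, had the lowest-ranked POL2 of the group. Its summits lay 538 bp before the TSS in WT replicate 1 and 636, 525 and 535 bp before it in SLK-KO replicates 1, 2 and 3, and the TSS of the noncoding gene ENSG00000289267 lies within 1 kb of them. Only SLK-KO replicate 3 also had a summit at the start itself, 9 bp past it, at rank 11186. The best EGR1 summit of a library scored 5.33 to 15.7, as −log10 of the q-value, against 38.1 to 225 for the best FOS promoter summit. In equal-length lists EGR1 had no summit in any library, so its presence in 3 SLK-KO libraries and 1 WT library and the difference in list length cannot be told apart.

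**Figure D3:**
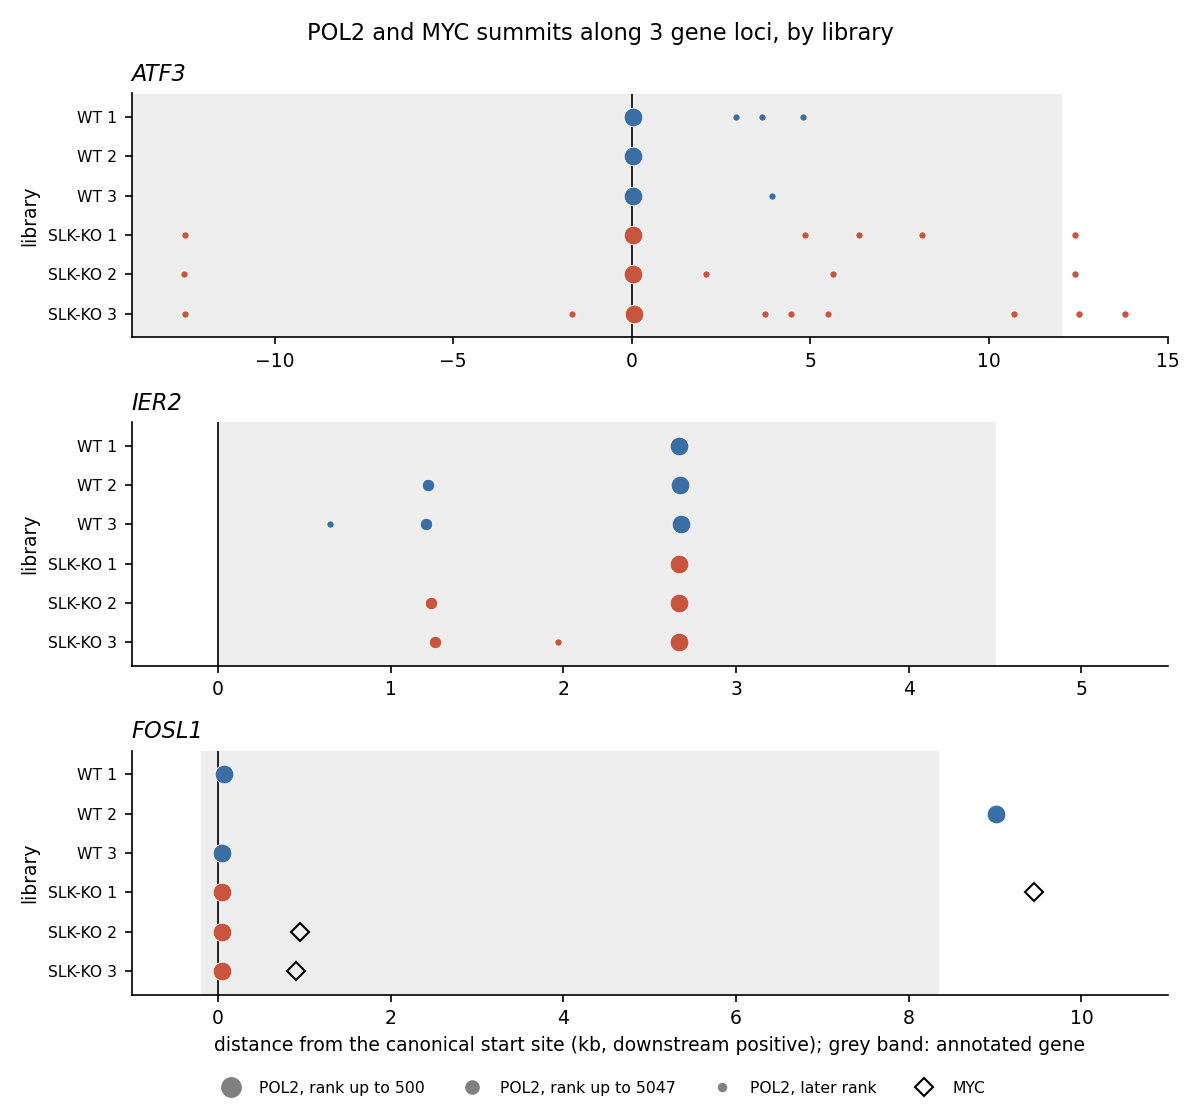
POL2 (filled circles, larger for better rank) and MYC (open diamonds) summits by distance in kb from the canonical start site along ATF3, IER2 and FOSL1, with 1 row per library. The 3 SLK-KO rows of ATF3 hold 5 to 9 POL2 summits against 1 to 4 in WT, the IER2 summit stands at the same place in 6 rows, and FOSL1 has MYC diamonds only in SLK-KO rows.

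Beyond promoters, ATF3 was the gene with most further summits. Its locus held 4, 1 and 2 POL2 summits in WT and 6, 5 and 9 in SLK-KO, which is 2.33 ± 1.53 against 6.67 ± 2.08 (SD, n = 3 each, exact permutation p = 0.1, adjusted 1 over all coding genes tested). The ranges did not overlap, as was so for 6.56% of 11687 coding genes in this direction and 0.0342% in the other, and for 1 and 0 of the 10 genes here. A summit 12508 to 12547 bp before the canonical TSS, inside a longer ATF3 transcript, was present in 3 SLK-KO and 0 WT libraries at ranks 7162 to 12087. Another, 12402 to 12518 bp past the TSS and beyond the 3′ end, was likewise present in 3 SLK-KO and 0 WT libraries, at ranks 8104 to 12757. All further ATF3 summits ranked past 5047, the whole length of the WT replicate 2 list. In equal-length lists the ATF3 locus had 1 summit in every library. Of the 7367 coding genes with a POL2 locus summit in those lists, 3.11% had ranges apart with more in SLK-KO.

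At the other genes, FOSB had 11 summits in the body or at the 3′ end over the 6 libraries, against 13 at ATF3. FOS had a 3′ end summit in WT replicates 1 and 3 (ranks 8626 and 9242) and none in SLK-KO. JUND had one in WT replicates 2 and 3 (ranks 3670 and 6395) and none in SLK-KO. FOSB had 3′ end summits in WT replicate 1 and in all 3 SLK-KO libraries, at ranks 8124 to 15509, and body summits in SLK-KO replicates 2 and 3 only (1 and 2). FOSL2 had body summits in SLK-KO replicates 1 and 3 only (2 and 1), at ranks 14524 to 18892. JUN had 3 body summits in WT replicate 2 (ranks 2436, 2437 and 4057) and in no other library. JUNB had a 3′ end summit in SLK-KO replicate 1 only. FOSL1 in WT replicate 2 had no promoter summit, and its only locus summit lay 9009 bp past the TSS, near the TSS of CCDC85B, at rank 79. That summit and not the promoter gave the FOSL1 rank of that library. Each list gives 1 summit per peak and no width, so a summit at another base may belong to a peak that covers the promoter as well.

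Counted over the group, 9, 8 and 9 genes had a POL2 promoter summit in WT and 9, 10 and 10 in SLK-KO. No gene had one in 3 libraries of 1 genotype and 0 of the other, against 2.87% (SLK-KO only) and 0.0186% (WT only) of 10765 coding genes. In equal-length lists the SLK-KO only share was 2.95% of 6784 coding genes. A body summit was present at 1, 1 and 0 genes in WT and 2, 2 and 3 in SLK-KO, and a 3′ end summit at 3, 3 and 3 in WT and 4, 3 and 3 in SLK-KO. Of coding genes with a promoter summit in the same library, 18.1%, 8.16% and 10.7% had a body summit in WT. In SLK-KO the shares were 20.9%, 17% and 17.2%, and 6.51% to 15% had a 3′ end summit. In the length range of the 10 genes, body shares were 5.86% to 14.1% in WT and 11.9% to 15.2% in SLK-KO. The 3′ end shares there were 8.74% to 20%. Those of the 10 genes with a promoter summit had the same body counts. Their 3′ end counts were 2, 2 and 3 in WT and 3, 3 and 3 in SLK-KO. Their body counts lie on both sides of the shares in WT and above them in SLK-KO. The 3′ end counts lie above the shares. In replicates 2 and 3 of both genotypes they include IER2, whose exon 2 summit counts as 3′ end only by the zone rule. The 3′ end counts over all 10 genes include IER2 in every library. Differences between the counts and the shares were not tested. In equal-length lists the body counts were 0, 1 and 0 in WT and 0 in each SLK-KO library, so the direction was lost.

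MYC is a basic helix-loop-helix factor that binds CACGTG with its partner MAX. MYC summits were found at 3 of the 10 genes, JUND, FOSL1 and JUNB, all in SLK-KO libraries, and at 0 of the 10 in WT. A MYC promoter summit was rare in WT generally, at 208 to 366 of the 20033 coding genes, against 933 to 1278 in SLK-KO, so 0 of 10 in WT does not set these genes apart. JUND had a MYC summit 513, 441 and 361 bp before its TSS in SLK-KO replicates 1, 2 and 3, at ranks 808, 497 and 675. It was the only one of the 10 genes with a MYC promoter summit in every SLK-KO library and in 0 WT libraries, as had 9.04% of the 1935 coding genes with a MYC promoter summit in any library. The microRNA gene MIR3188 also starts within 1 kb of it. FOSL1 had a MYC summit in its first kilobase, 944 and 904 bp past the TSS and in an intron, in SLK-KO replicates 2 and 3 (ranks 648 and 411). In SLK-KO replicate 1 the FOSL1 locus had one 9453 bp past the TSS instead, near CCDC85B, at rank 781. JUNB had one in SLK-KO replicate 1 only, 2642 bp past the TSS and beyond the gene, at rank 406.

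Counted over the locus, JUND and FOSL1 had more MYC summits in every SLK-KO than in every WT library, as had 9.18% of 2298 coding genes. Each of these 7 summits ranked past 365, the length of the longest WT list. In equal-length lists no gene of the 10 had a MYC summit in any library, and 1.46% of coding genes had a promoter summit in 3 SLK-KO and 0 WT libraries. The genotype difference at these genes and the difference in list length cannot be told apart.

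The sequences under the 2 MYC positions with CACGTG are shown because they carry the motif that MYC is known for, in capitals, on the plus strand of GRCh38. The FOSL1 stretch is intronic, and the same CACGTG lies 12 bp after the summit of SLK-KO replicate 2 and 28 bp before that of replicate 3, in plus-strand bases. The JUNB stretch lies past the gene, with CACGTG 9 bp from the summit.
FOSL1, chr11:65899444-65899473, plus strand: ctcccctgtcgaCACGTGctcgcagcccct
JUNB, chr19:12794125-12794154, plus strand: gcgcagctgggaCACGTGgaggtgggggtg
No CACGTG lay within 300 bp of the 3 JUND summits. Over all MYC summits, CACGTG lay within 100 bp of 40.6%, 45.3% and 43.7% in WT and 30.9%, 29.4% and 30.7% in SLK-KO. The JUND MYC summits stood 416 to 559 bp from the POL2 summit of the same-numbered library, and those of FOSL1 in the intron 859 and 897 bp.

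Related genes were counted from 4 lists chosen by function. Of 33 other immediate early genes, 23 had a POL2 promoter summit in all 6 libraries and 29 in at least 1. CCN2, a matrix-associated growth regulator, and BTG2, an antiproliferative gene, carried such a summit in the 3 SLK-KO libraries and in 0 of the WT libraries. At CCN2 the SLK-KO summits lay 57 to 73 bp past the TSS at ranks 108, 124 and 101. The WT libraries instead each had a CCN2 summit 2595 to 3567 bp past the TSS, at the 3′ end of this short gene, at ranks 65, 46 and 47. CCN2 thus had a summit among the first 124 in every library, at its start in SLK-KO and at its end in WT. With 1 summit per peak and no width, these summits may belong to peaks that cover both ends of the gene. BTG2 had no locus summit in WT, and its SLK-KO ranks were 7263, 4309 and 8468. Only 1 of these was left in equal-length lists, so genotype and list length cannot be told apart at BTG2. A promoter summit in 3 SLK-KO and 0 WT libraries was found at 2.87% of the 10765 coding genes with one in any library. On equal-length rank, 24 genes of the list could be tested. Of these, 5 ranked better in every SLK-KO library (IER5, KLF2, KLF4, DUSP1, MCL1) and 6 worse (KLF10, NR4A2, DUSP4, ZFP36L1, CCN2, HES1), with a median difference of 0.17. DUSP1, a phosphatase that switches off MAP kinases, ranked 282, 218 and 288 in WT and 102, 120 and 123 in SLK-KO. NR4A2, an orphan nuclear receptor, ranked 1353, 1040 and 1309 in WT and 4160, 2449 and 3090 in SLK-KO. Both had groups that did not overlap, in opposite directions, with exact permutation p = 0.1 and 0.323 after adjustment over the 2966 genes.

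Of 15 other basic leucine zipper partners, 5 had a promoter summit in all 6 libraries. Of the 6 testable by rank, 0 ranked better in every SLK-KO library and 3 ranked worse (ATF2, CREB1 and CREM). CREB5 went the other way in full lists, with promoter ranks 3232, 2082 and 6636 in WT and 390, 938 and 612 in SLK-KO. Its WT replicate 3 summit fell outside the equal-length list, so CREB5 was not among the 6. CREB5 was named after its values were seen. CREM, a CRE-binding factor, ranked 71, 154 and 103 in WT and 160, 197 and 181 in SLK-KO. Of 16 upstream kinases and activators, 7 had a promoter summit in all 6 libraries. ELK3, a ternary complex factor that acts with SRF, had one in the 3 SLK-KO libraries and in 0 WT libraries. The ranks were 9004, 11965 and 5888, so none was left in equal-length lists. WT replicate 1 had an ELK3 summit 1333 bp past the TSS, outside the promoter zone. SRF, which binds the CArG box, had a promoter summit in all 6 full lists at ranks 3205, 3385 and 1933 in WT and 10550, 5881 and 8984 in SLK-KO. In equal-length lists SRF was therefore present in 3 WT and 0 SLK-KO libraries, as were 1.34% of the 6784 coding genes with a promoter summit in those lists. SRF was named after its values were seen. Of 16 AP-1 target genes, 7 had a promoter summit in all 6 libraries and 0 were in 1 genotype only. VIM, an intermediate filament gene, was the only one of 7 testable by rank with groups apart, at 225, 205 and 169 in WT and 152, 153 and 134 in SLK-KO. Of the 2966 coding genes, 15.4% ranked better in every SLK-KO library as VIM did.

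The cell type was checked by markers. KRT8, KRT18 and KRT19, keratins of simple epithelia, had a POL2 promoter summit in all 6 libraries, at ranks 234 to 349 for KRT8. The epithelial adhesion genes did not. EPCAM had one in WT replicate 1 (rank 9440) and in the 3 SLK-KO libraries (ranks 11375, 8765 and 9795), and CDH1 in WT replicate 1 only (rank 9371). Of the androgen-dependent luminal genes, KLK2, KLK3 and FOLH1 had none in any library, while TMPRSS2 had one in all 6 libraries. Of 4 leukocyte markers 0 had one, and of 4 fibroblast markers only COL1A1 did, in 2 libraries of each genotype. KRT18 ranked 303, 436 and 522 in WT and 1417, 778 and 1247 in SLK-KO, and KRT19 318, 246 and 281 against 547, 592 and 458. These 2 keratins had groups apart, with worse rank in SLK-KO, the opposite direction to FOS, JUN, JUND and ATF3. For each the exact permutation p was 0.1 and 0.323 after adjustment, and 15.5% of the 2966 coding genes ranked worse in this way. KRT8 overlapped, at 258, 349 and 234 in WT and 294, 260 and 298 in SLK-KO. Any part of the keratins in the result at FOS, JUN, JUND and ATF3 was not tested.

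The AP-1 element was then counted away from coding promoters, since AP-1 is known to act most at distal sites. TGACTCA or TGAGTCA lay within 100 bp of 6.79%, 7.39% and 6.83% of the POL2 summits over 1 kb from any coding TSS in WT. In SLK-KO the shares were 8.27%, 8.42% and 7.91%. Summits near start sites of noncoding genes stayed in this distal class. All SLK-KO libraries were above all WT libraries, at 8.199% ± 0.26 against 7.005% ± 0.338 (SD, n = 3 each). The shares differed by 1.20 percentage points (exact permutation p = 0.1, the smallest possible). Positions 2 kb away held it in 3.21% and 3.31%, and summits at promoters in 2.01% and 2.39%, of WT and SLK-KO. At promoters too every SLK-KO library was above every WT library, also in equal-length lists (1.73% and 2.02%, exact permutation p = 0.1 in both), so the difference was not limited to distal summits. In both genotypes the share was higher at distal POL2 summits than 2 kb beside them in every library. In equal-length lists the groups overlapped, at 6.70% ± 0.95 and 7.55% ± 0.78 (exact permutation p = 0.4). The genotype difference depended on the window. Within 50 bp the share was 3.28% in WT and 3.04% in SLK-KO, a difference of -0.24 points. Within 200 bp it was 14.6% and 18.01%, a difference of 3.43 points, and in equal-length lists 17.5%, 14.1% and 16.7% in WT against 20.2%, 20.2% and 20.5% in SLK-KO, a setting added after the data were seen. The CRE was rare at distal summits, 0.39% in WT and 0.29% in SLK-KO.

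**Figure D4:**
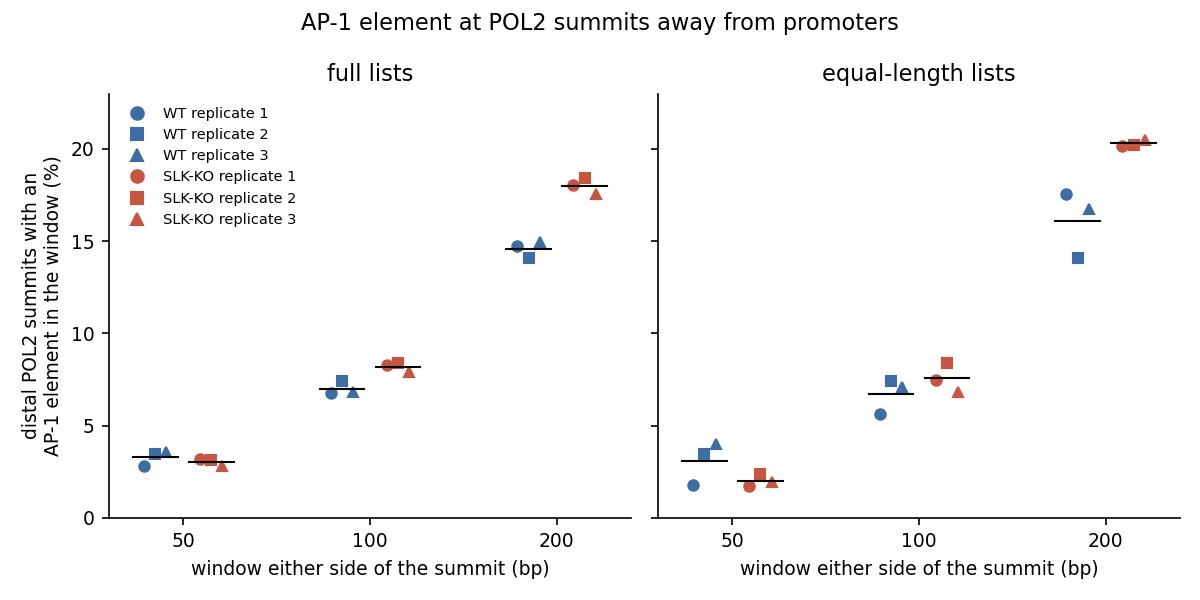
Percent of POL2 summits over 1 kb from any coding start site with the AP-1 element within 50, 100 or 200 bp (horizontal axis). Symbols are libraries and colours genotypes, with the mean of 3 libraries as a black line, in full and equal-length lists. At 200 bp the 3 SLK-KO libraries lie above the 3 WT libraries in both panels, while at 50 bp the WT mean is the higher.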

How the data were processed

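Per the series' design text, 50 bp paired-end reads were processed with nf-core/chipseq 2.1.0 against GRCh38.p14. The submitters' processing notes name Trim Galore 0.6.7, cutadapt 3.4, BWA 0.7.18-r1243, Picard 3.2.0 and MACS3 3.0.1. The control library and the caller's options are not given in the sources used here. Each of 12 deposited lists gives the 1-bp summits of 1 library, with a score read as −log10 of the q-value because the lowest scores lie just above −log10 of 0.05. The lists were called by the authors per library, and hold no counts or widths, so depth is unknown and no interval can be given.

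Summits were assigned to GENCODE release 44 genes as promoter, then 3′ end, then body, and ranked by score within a list. Genotypes were compared over libraries by exact two-sided permutation (20 relabellings, smallest p 0.1), with Benjamini-Hochberg adjustment over all coding genes tested. p-values measure the spread between these libraries. Counting was checked on simulated lists. Motifs were read from GRCh38 and from RefSeq promoters, with chromosomes 1 to 22, X and Y for shares. Alternatives were equal-length lists, a score of at least 5, canonical start sites, other windows, leaving out each library and a replicate block. All 10 genes were named, with genes starting near their summits, list genes with a promoter summit in 3 libraries of 1 genotype and 0 of the other (up to 5 per list and direction), and the 3 genes nearest to the member ranked best on promoter summits, JUNB. List genes with rank groups apart were named after their values were seen. Some genes of the marker lists are not reported here. Members and lists were chosen with earlier results of these data known. The scripts ran on Python 3.11.15 with numpy 2.4.6, matplotlib 3.10.9, pysam 0.24.0 and samtools 1.23.1.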

Additional observations from a re-analysis of the deposited data

How the results depend on the processing

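Depth is unknown, and list length decided most counts of presence. In equal-length lists the POL2 locus summits of the 10 genes, 4.33 more per library in SLK-KO in full lists, were -2 (fewer in SLK-KO). The differences in genes with a POL2 summit in the promoter, body and 3′ end, 1, 1.67 and 0.33, became 0.33, -0.33 and -0.67, and that for a MYC promoter summit, 1.67, became 0. FOSB locus summits became -0.33. Coding genes with more POL2 locus summits in SLK-KO fell from 767 to 229 and those with fewer rose from 4 to 146. Coding genes with a POL2 promoter summit in 3 SLK-KO and 0 WT libraries went from 309 to 200 and the reverse from 2 to 91, and for MYC from 175 to 7 and from 0 to 6, with 0 in place of 1 of the 10 genes. When only scores of 5 or more counted, the MYC numbers were 98 and 0 of the 10, the MYC promoter difference 1 and the body difference 0.67. With canonical start sites the promoter and body differences were 0.33 and 0.67, and 4 coding genes were in WT only. With a 500 bp promoter window the POL2 and MYC promoter differences were 0.33 and 0.67, 0 of the 10 genes had MYC in SLK-KO only, and 5 coding genes had POL2 in WT only. For the AP-1 element share, the 50 bp window gave -0.24 points in full and -1.07 in equal-length lists, the second setting added after seeing the data, and the CRE in its place -0.10.

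Leaving out 1 library at a time gave 1.67 to 6.67 more locus summits, differences of 0.67 to 1.33 (promoter), 1.33 to 1.83 (body), 0 to 0.50 (3′ end) and 1.50 to 2 (MYC), 777 to 2868 coding genes with more and 11 to 119 with fewer locus summits, 311 to 1663 and 3 to 28 with POL2 in SLK-KO or WT only, 196 to 358 and 0 to 1 for MYC, and AP-1 shares of 1.09 to 1.39 points. The 2868 and 1663 coding genes came without WT replicate 1, the longest WT list, and the 6.67 locus summits without SLK-KO replicate 2. Of the 10 genes 0 to 1 then had POL2 and 1 to 2 MYC at the promoter in SLK-KO only, and 0 had either in WT only. The count of 4 genes ranking better became 4 to 5 and that of genes ranking worse 0 to 2, against 571 to 640 and 585 to 694 of all coding genes. The sign of the rank difference turned at JUNB without WT replicate 2 (0.21), WT replicate 3 (0.00098) and SLK-KO replicate 3 (0.03), within a range of -0.25 to 0.21, and at IER2 without WT replicate 2 (0.0090), WT replicate 3 (0.02) and SLK-KO replicate 1 (0.088), within a range of -0.26 to 0.088. FOSL2 locus summits turned to -0.17 without WT replicate 2. For the changes beyond list length the cause was not tested.

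Same-numbered libraries shared no deviation from their genotype's mean beyond a correlation of 0.05 in POL2 promoter presence, so the numbers were not taken as pairs. With a replicate block the AP-1 share difference of 1.20 points had an exact p of 0.25 by sign flips, where 8 flips can give no less, and the ATF3 locus difference of 4.33 had 0.25 as well.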

Other observations

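Summits were also sought outside each locus, up to 50 kb from the gene and over 1 kb from every annotated start site. Single summits recurred near several of the genes, and no link to the gene named was measured. A MYC site 28491 bp past the JUN TSS (chr1:58755483-58755599, in the noncoding gene ENSG00000283445) had a summit in 3 SLK-KO and 0 WT libraries, at ranks 101, 1204 and 819. The first of these lies within the equal-length list of 201 summits, which held no MYC summit at the 10 genes. A POL2 site 59066 bp past the ATF3 TSS (chr1:212667796-212668044) was present in 3 SLK-KO and 0 WT libraries at ranks 12177 to 14286, all past the length of the shorter WT lists. A POL2 site 11103 bp before the FOSL1 TSS (chr11:65911365-65911712), outside any annotated gene, was present in all 6 libraries, at ranks 2379, 2631 and 1898 in WT and 2913, 6282 and 5218 in SLK-KO. A POL2 site 10452 bp before the JUND TSS was present in WT replicates 1 and 3 (ranks 6830 and 7918) and in all 3 SLK-KO libraries (ranks 4737, 4391 and 5358).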
